A study of Homo sapiens with 4 samples.

Results

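MAT2A, OGT and the kinases CLK1, CLK2, CLK3 and CLK4 are human genes known for detained introns, that is, for introns left in otherwise processed nuclear RNA until a signal in the cell calls for their removal. The 6 genes were taken by symbol, and every row of the deposited intron tables whose transcript belongs to them in GENCODE 29 was kept. They are 6 of 17774 genes with a placed intron, and they hold 125 of the 209592 unique introns of the series: 10 in MAT2A, 27 in OGT, 17 in CLK1, 16 in CLK2, 31 in CLK3 and 24 in CLK4. Of the 125, between 104 and 119 had a read in each library.

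The libraries came from K562, an established chronic myeloid leukaemia line, with SF3B1 as wild type (WT, 2 samples) or with the K700E substitution (K700E, 2 samples). Both groups received doxycycline at 1 µg/ml to induce the modified allele and were harvested 4 days later. Neither the promoter of that allele nor whether a line is 1 clone is given in the sources used here. Nothing states that replicates were separate cultures, so every p-value applies to these samples only. RNA was taken from chromatin, freed of polyadenylated and ribosomal RNA, and read with PacBio long reads. SF3B1 is the U2 snRNP subunit that holds the branch point region of an intron. The comparison asked how much splicing had taken place on chromatin-bound RNA in mutant against wild-type cells. Since polyadenylated RNA was removed, a low efficiency here does not show whether an intron was detained in otherwise processed RNA.

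Each of the genes is a node of a feedback loop. MAT2A makes S-adenosylmethionine, the methyl donor of the cell, and METTL16 binding to its RNA couples removal of the last MAT2A intron to the supply of that metabolite. OGT attaches N-acetylglucosamine to serine and threonine of nuclear and cytoplasmic proteins, and intron 4 of OGT is kept or removed according to the level of that modification. The CLK kinases phosphorylate SR proteins, the splicing factors rich in arginine and serine, and each CLK gene has an alternative exon 4 whose flanking introns can be held in nuclear RNA while kinase activity is sufficient.

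The splice sites of the introns named in these loops are shown first, because they differ between the gene families. They were read from GENCODE 29 transcripts (GRCh38) that keep the intron. A 5′ splice site is written as 3 exon and 6 intron bases with the intron's GT in capitals, and a 3′ splice site as 50 intron and 3 exon bases with the AG in capitals. The 5′ splice sites of intron 4 of the CLK genes were
CLK1, chr2:200859747-200860124, minus strand: gatGTatag
CLK2, chr1:155268360-155268707, minus strand: gatGTacaa
CLK3, chr15:74622217-74622493, plus strand: gatGTacag
CLK4, chr5:178616949-178617343, minus strand: gatGTatag
All 4 share the bases GATGTA over the exon-intron border, which stood at 55 of 21145 GT-AG introns readable in the same way (0.260%). Each matched the consensus (CAG in the exon and GTAAGT in the intron) at 4 of 9 bases, a number reached or undercut by 7.99% of those introns, whose median was 6.

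The 3′ splice sites of the same introns all open the next exon with atg.
CLK1: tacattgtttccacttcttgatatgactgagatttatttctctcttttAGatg
CLK2: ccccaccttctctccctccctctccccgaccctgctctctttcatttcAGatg
CLK3: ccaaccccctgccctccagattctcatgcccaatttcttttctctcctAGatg
CLK4: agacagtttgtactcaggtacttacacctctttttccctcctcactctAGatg
Upstream of exon 4, the 5′ splice site of intron 3 read gggGTatga in CLK1, tcgGTatga in CLK4 and tcgGTgagt in both CLK2 and CLK3, with 5, 5, 6 and 6 matches. CLK1 and CLK4 are the closest pair of the family: 253 of 346 aligned bases (73.1%) of intron 4 and 69.9% of intron 3 were identical. How the aligner treated reads that could match both genes is not given, so their split of reads is uncertain.

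The detained introns of MAT2A and OGT had 5′ splice sites nearer to the consensus, each with 7 matches.
MAT2A intron 8, chr2:85543035-85543669, plus strand, 5′ splice site: cagGTaaag
OGT intron 4, chrX:71544636-71547906, plus strand, 5′ splice site: aagGTaggt
OGT intron 4, 3′ splice site: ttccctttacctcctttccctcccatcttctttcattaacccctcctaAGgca
MAT2A intron 6, chr2:85542374-85542564, plus strand, 5′ splice site: cagGTaatg
MAT2A intron 6, 3′ splice site: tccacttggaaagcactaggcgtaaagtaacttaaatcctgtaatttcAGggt
MAT2A intron 6 is shown because it alone among the introns of these genes passed the test of genotype. The next AG of its 3′ end lies 23 nt upstream of the last one, and another AG 10 to 35 nt upstream is found in 63.7% of the GT-AG introns read. A read that joined such a site would count as unspliced in these tables unless the annotation lists that site.

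Splicing efficiency is given as the percentage of reads across an intron that carry its junction. The libraries held 1346809 and 1185049 read-intron overlaps in WT and 459726 and 909679 in K700E, and for 6141 introns that had 10 reads or more in every library median efficiency was 90.3% and 85.7% in WT against 80.0% and 85.1% in K700E. A read entered the count of an intron only if it crossed the whole intron: where 1 annotated intron lay inside another, the outer one had no more reads than the inner one in 99.9 to 100% of pairs. An unspliced read over a long intron must therefore be at least as long as that intron, and levels of introns of different length are not directly comparable. The cell type label reads epithelial, whereas 11 erythroid and K562 markers held 850 to 5144 overlaps in a library (TFRC, ALAS2, HBG1, HBG2, TAL1 and GATA1 in every library, KLF1 and EPOR in none). TFRC alone, at 730 to 3571 overlaps per library, made up most of that sum in each of them, while GATA1 held 4 to 11. The 9 epithelial markers held 27 to 95. Of these, KRT18 (7 to 49), KRT8 (5 to 34) and EPCAM (3 to 12) had overlaps in every library, and KRT5, CLDN4 and GRHL2 stood at 0 throughout. The 6 lymphoid and 6 myeloid markers held 0 to 50 and 0 to 40. Since the tables do not separate the alleles of SF3B1, the genotype labels could not be checked.

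In MAT2A, the last intron was the least spliced of 8 in all 4 libraries. Intron 8 (635 nt) was spliced in 4 of 22 reads (18.2%) and 29 of 52 (55.8%) in WT, and in 0 of 5 and 7 of 27 (25.9%) in K700E. Exact (Clopper-Pearson) 95% intervals, which cover counting error only, were 5.2 to 40.3% and 41.3 to 69.5% in WT and 0 to 52.2% and 11.1 to 46.3% in K700E. The next lowest MAT2A intron stood at 34.8% and 86.7% in WT against 77.1% and 46.8% in K700E. Last introns were often poorly spliced across the series. A set was taken of protein-coding introns that were last in every annotated transcript holding them and had at least 10 reads. Of overlapping introns it keeps the most used by junction reads, which favours spliced introns. The median of this set was 90.9% and 67.4% in WT against 58.7% and 56.7% in K700E. In WT 1, WT 2 and K700E 2, 12.7%, 40.9% and 34.6% of the set were lower than MAT2A intron 8. With 5 reads in K700E 1, the intron was not tested for genotype.

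The first MAT2A intron (1704 nt) lay at the other end of the scale. It was spliced in 61 of 61 and 653 of 654 reads in WT and in 33 of 33 and 61 of 61 in K700E, while the 2 annotated alternatives of that intron had no junction read in any library.

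The body of MAT2A, introns 2 to 7, split the libraries without regard to genotype. Intron 2 (94 nt) was spliced in 38.7% and 89.7% of reads in WT against 88.5% and 61.8% in K700E. Intron 4 (83 nt), the most read, was spliced in 79 of 227 (34.8%) and 657 of 727 (90.4%) in WT and in 50 of 56 (89.3%) and 65 of 120 (54.2%) in K700E. WT 1 and K700E 2 were thus low, and WT 2 and K700E 1 high, and introns 3 and 5 had the same order. The gap between the WT libraries at intron 4 exceeded their counting error by far, since the exact 95% intervals were 28.6 to 41.4% and 88.0 to 92.4%. Long reads cross several of these short introns at once, so introns 2 to 5 repeat much of the same molecules.

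The number of reads also differed along the gene, and by different factors in each library. Intron 2 was crossed by 143 more reads than intron 1 in WT 1, 62 in WT 2, 19 in K700E 1 and 41 in K700E 2, which are ratios of 3.34, 1.09, 1.58 and 1.67. The reads across intron 2 that lacked its junction numbered 125, 74, 6 and 39 in the same order. WT 1, with the largest step, was also the library with the lowest efficiency in introns 2 to 5, and the part of the step in that efficiency was not tested. The ratio of reads at intron 6 to intron 5 was 0.351 and 0.623 in WT against 0.550 and 0.699 in K700E, and that of intron 8 to intron 7 was 0.290 and 0.182 in WT against 0.143 and 0.409 in K700E.

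**Figure D1:**
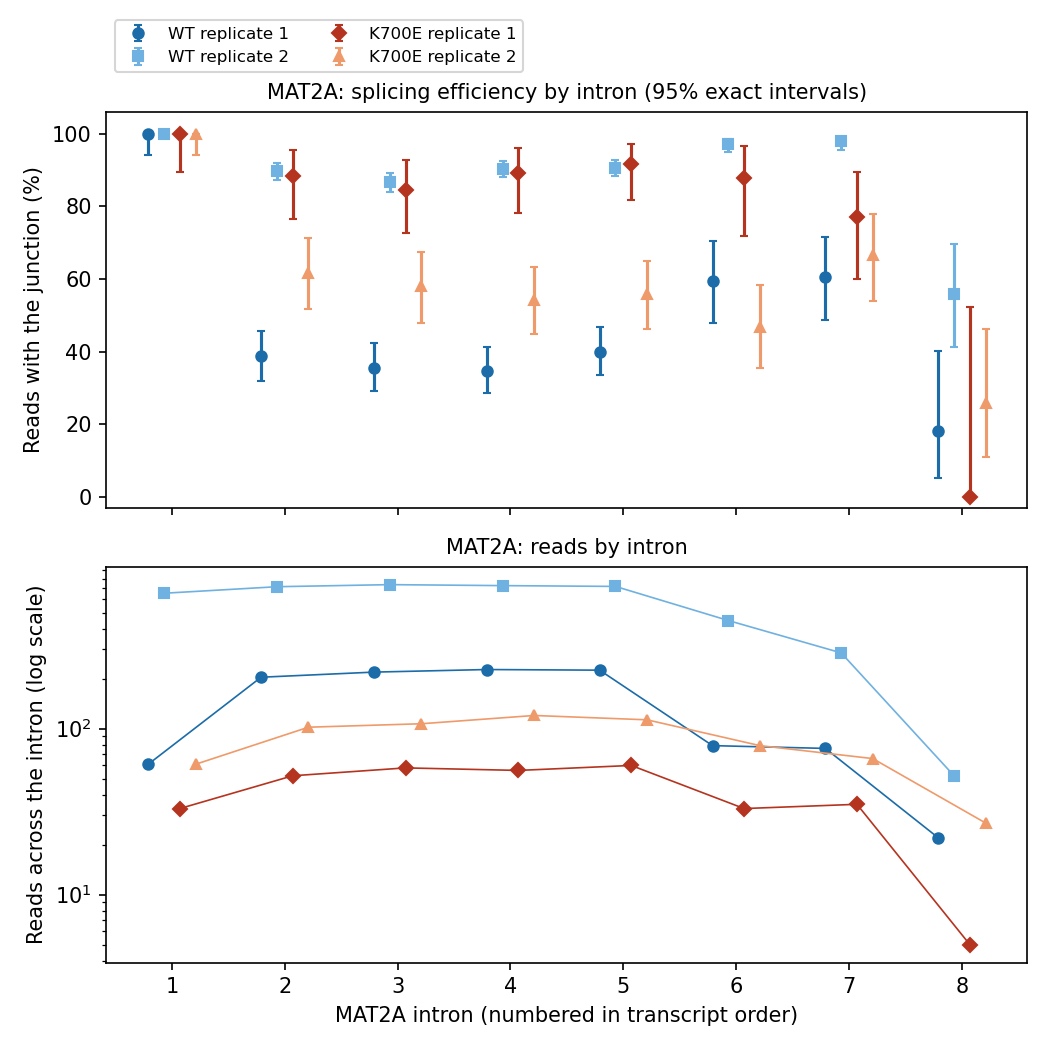
Splicing efficiency (upper panel, percentage of reads with the junction, exact 95% intervals) and reads across the intron (lower panel, log scale) for the 8 introns of MAT2A in each library, WT in blue and K700E in red and orange. Intron 1 is near 100% and intron 8 lowest in every library, and in introns 2 to 5 WT replicate 1 and K700E replicate 2 lie below WT replicate 2 and K700E replicate 1.

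MAT2A intron 6 (191 nt) was the only intron of these genes called between genotypes, and its values overlapped. It was spliced in 47 of 79 (59.5%) and 435 of 448 (97.1%) reads in WT and in 29 of 33 (87.9%) and 37 of 79 (46.8%) in K700E. The mean was 78.3% ± 26.6 (SD, n = 2) for WT and 67.4% ± 29.02 (SD, n = 2) for K700E, a difference of -10.9 percentage points and a log2 odds ratio of -2.90 ± 0.69 (SE), with an adjusted p of 0.0304 in edgeR's quasi-likelihood test. The fit behind this p held the negative binomial dispersion at 0 and drew the remaining, quasi-likelihood spread of each intron towards a value shared by all introns. The scatter of this intron's own replicates had almost no weight in that p. With the dispersion estimated the edgeR adjusted p was 0.998, in DESeq2 0.999, in limma 0.910 and with a minimum of 5 reads 0.142. Leaving out WT replicate 2 or K700E replicate 2 turned the difference positive, to 7.86 and 9.58 points. Leaving out WT replicate 1 or K700E replicate 1 made it -29.7 and -31.5 (edgeR adjusted p = 0.000337 and 0.112). The difference does not exceed the spread between replicates. Over all introns tested this fit called 0.0982% (0.0785% lower and 0.0196% higher in K700E) and the fit with estimated dispersion 0.0393%. Of the 23 reference introns of these genes that could be tested, the former called 1.

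No other MAT2A intron passed. Introns 2 to 5 had higher mean efficiency in K700E, by 10.9, 10.1, 9.14 and 8.37 points, yet the fitted log2 odds ratios were negative, from -0.84 to -0.55, since the fit weights libraries by their reads and WT 2 held most of those in WT. Intron 7 was spliced in 60.5% and 97.9% of reads in WT against 77.1% and 66.7% in K700E, a difference of -7.31 points (edgeR adjusted p = 0.985), which passed at -26.0 points without WT replicate 1 (adjusted p = 0.0258). Summed over all its annotated introns, MAT2A was spliced in 39.1% and 70.6% of its overlaps in the WT pair, against 72.4% and 50.4% in K700E (edgeR adjusted p = 1.00), and the groups overlapped. Such gene sums take in overlapping annotated introns, at which a read spliced to another site counts as unspliced. The reference introns of MAT2A other than intron 8 were spliced in 44.0% and 92.3% of overlaps in WT against 88.4% and 61.0% in K700E.

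OGT was spliced nearly to completion over most of its length. In introns 8 to 17 the median efficiency was 99.3% and 98.1% in WT against 95.9% and 93.7% in K700E, and the lowest value was 97.7% and 92.5% in WT against 90.5% and 81.8% in K700E. Intron 12 stood at 100% in all 4 libraries, where junction counts above the reads (228 over 225 in WT 1 and 50 over 49 in K700E 1) were set to the reads.

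OGT intron 4 (3271 nt), the intron known to be detained, was the exception. It was spliced in 5 of 11 and 2 of 7 reads in WT and in 1 of 2 and 3 of 7 in K700E, and was the lowest of the OGT introns in the 3 libraries where it had at least 5 reads. In WT 1 the value of 45.5% has an exact 95% interval of 16.7 to 76.6%. Among introns of 2000 to 4000 nt with at least 10 reads, 1.98% were lower, around a median of 97.6%. Of overlapping introns that set keeps the most used by junction reads in these libraries, which favours spliced introns. Over all introns with at least 10 reads in WT 1, of any length and overlapping ones included, 30.6% were lower. The depth does not allow a comparison of genotypes at this intron. An annotated intron that shares its 5′ splice site but ends within it (chrX:71544636-71546210) was crossed by 16, 11, 3 and 8 reads in WT 1, WT 2, K700E 1 and K700E 2 and had no junction read.

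Few molecules joined the parts of OGT on either side of intron 4. Intron 3 (6494 nt) was crossed by 123 and 146 reads in WT and 46 and 46 in K700E, and intron 4 by 11, 7, 2 and 7, a factor of 0.0894, 0.0479, 0.0435 and 0.152. Further on, intron 12 was crossed by 225 and 107 reads in WT and 49 and 38 in K700E. By these counts, at most 11, 7, 2 and 7 reads link introns 1 to 3 with introns 5 to 21. Junction counts exceeded the reads at some other OGT introns, so this is not a strict limit. The part of read length in this step was not tested.

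**Figure D2:**
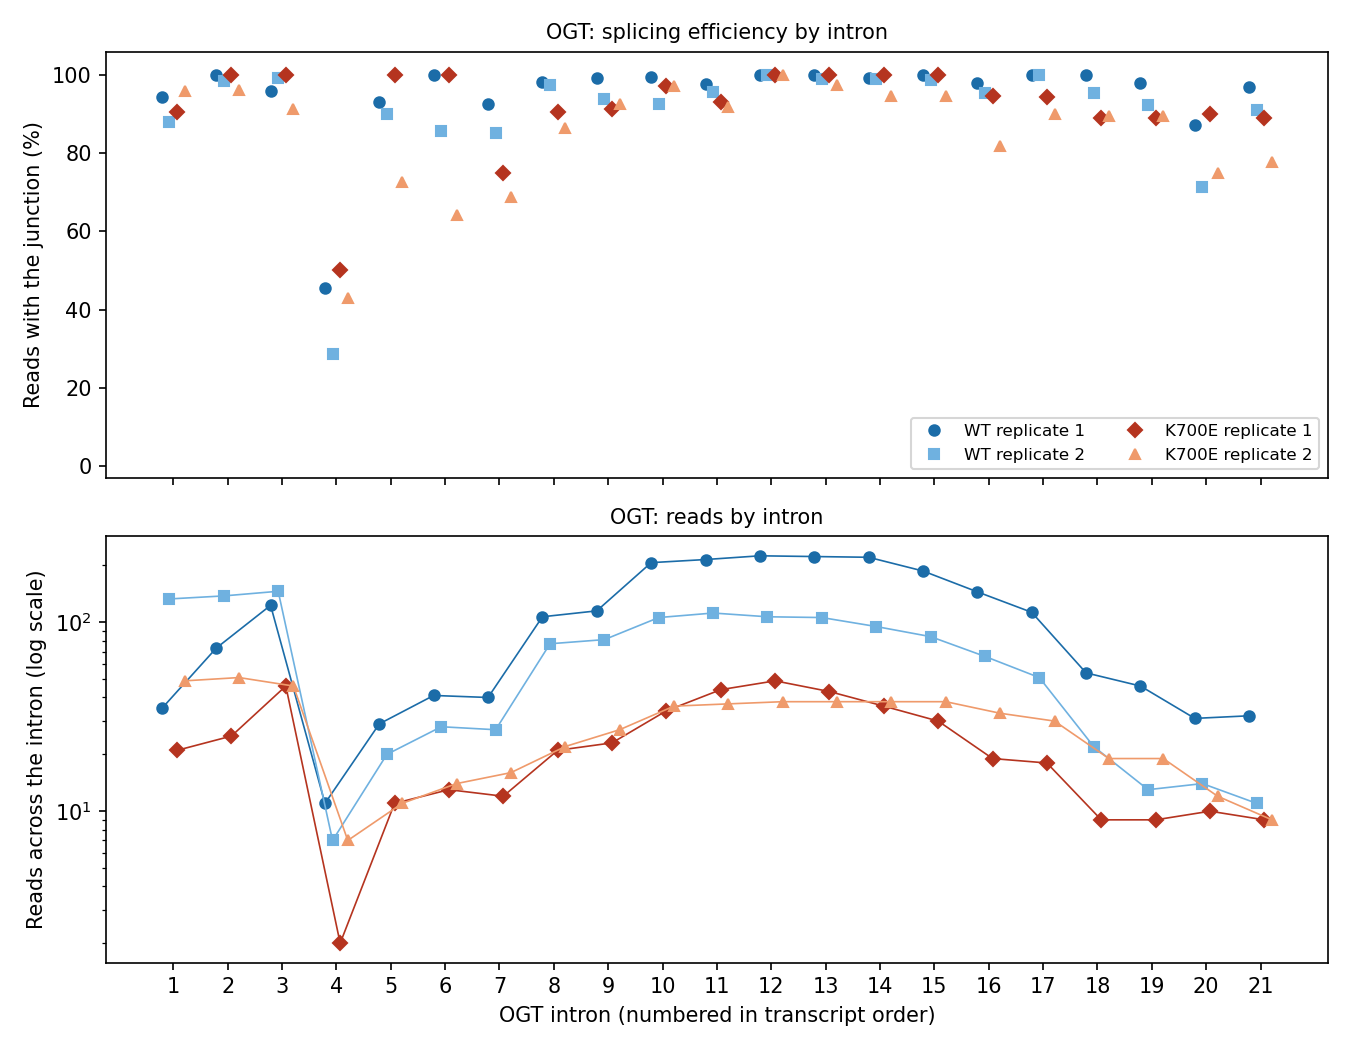
Splicing efficiency (upper panel, percentage of reads with the junction) and reads across the intron (lower panel, log scale) for the 21 introns of OGT in each library. Intron 4 is lowest in efficiency and in reads, with 2 to 11 reads, while introns 8 to 17 lie between 81.8% and 100%.

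Genotype values of OGT leaned to one side without passing the test. Of 17 reference introns with at least 10 reads in every library, 13 were lower in K700E, 3 higher and 1 equal, with a median of -2.04 points against -1.67 over all introns tested. Of all 5093 introns tested, 3137 were lower and 1952 higher, so most of the series leaned to the same side. In 6 of the 17 both K700E libraries lay below both WT libraries, and in none above, whereas 19.9% of all introns tested were separated in the lower and 9.19% in the higher direction. Since the same long reads cross neighbouring introns, these 6 are not independent.

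The 6 introns were 7, 8, 9, 11, 16 and 17. Intron 7 (568 nt) was spliced in 92.5% and 85.2% of reads in WT against 75% and 68.8% in K700E, from 12 and 16 reads in K700E. Intron 8 stood at 98.1% and 97.4% in WT against 90.5% and 86.4% in K700E, and intron 17 at 100% and 100% against 94.4% and 90.0%. Both WT values of intron 17 are capped, since 132 junction reads over 113 reads in WT 1 and 53 over 51 in WT 2 were set to the reads. The smallest edgeR adjusted p over the OGT introns was 0.985. Intron 16 (97.9% and 95.5% in WT, 94.7% and 81.8% in K700E) differed by -8.42 points, and by -1.96 without K700E replicate 2. Intron 9 differed by -4.53 points, by -1.88 if WT replicate 1 was left out and by -7.18 if WT replicate 2 was.

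Minor OGT junctions were rare. The annotated variant of intron 1 that ends at a 3′ splice site further into the gene (chrX:71533337-71536207) was used in 5.71% and 9.77% of reads in WT against 14.3% and 0% in K700E, and the main form of intron 1 in 94.3%, 88.0%, 90.5% and 95.9%. The junction that skips the exon between introns 6 and 7 was found in 1 of 36 and 2 of 25 reads in WT and in 0 of 10 and 0 of 11 in K700E. Over the whole gene OGT was spliced in 89.3% and 73.1% of overlaps in WT and 80.9% and 69.0% in K700E (edgeR adjusted p = 1.00), with overlapping groups.

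The CLK genes were read far less, and none of their introns had 10 reads in every library, so they are given by counts. At intron 4, downstream of the alternative exon, the junction was found in 5 of 33 reads (15.2%) and 2 of 14 (14.3%) in WT, and in 1 of 16 (6.25%) and 3 of 19 (15.8%) in K700E, summed over the 4 genes. The other 40 reference introns of the genes, leaving out introns 3 and 4, were spliced in 66.5% and 59.4% of reads in WT against 43.4% and 57.0% in K700E. Intron 4 was thus below the rest in every library, at 11 of 82 reads (13.4%) against 399 of 682 (58.5%) in all. Intron 4 measures 277 to 395 nt in these genes, whereas the other introns reach 4477 nt, and unspliced reads over long introns are counted less readily. The part of length in this contrast was not tested. Intron 3, upstream of exon 4, was spliced in 6 of 22 reads.

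CLK1 held 41 of the 82 reads, with 2 spliced. Its intron 4 (378 nt) was spliced in 1 of 15 and 0 of 5 reads in WT and in 0 of 11 and 1 of 10 in K700E, the lowest CLK1 intron with at least 5 reads in each library. The exact 95% intervals were 0.2 to 31.9% and 0 to 52.2% in WT and 0 to 28.5% and 0.3 to 44.5% in K700E, so the genotypes could not be told apart at this depth. Among introns of 200 to 600 nt with at least 10 reads, again only the most used of overlapping ones, 4.54% were lower in WT 1 and 6.26% in K700E 2, around medians of 82.4% and 75%. CLK1 intron 4 itself would not enter that set, since the junction that skips exon 4 had 4 reads against its 2. Over all introns with at least 10 reads, of any length, 21.6% were lower in WT 1 and 28.2% in K700E 2. The next CLK1 intron, intron 5, was spliced in 14 of 14 and 2 of 3 reads in WT and in 3 of 6 and 5 of 6 in K700E.

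The other CLK genes had fewer reads at intron 4. CLK3 was spliced there in 1 of 6 and 2 of 8 reads in WT and in 1 of 4 and 1 of 4 in K700E. CLK4 was spliced in 3 of 11 and 0 of 1 in WT and in 0 of 2 in K700E 2, with no read in K700E 1, and CLK2 in 1 of 5 in all. Intron 4 was not the least spliced intron throughout: CLK4 intron 12 stood at 2 of 11, CLK2 introns 10 and 11 at 3 of 24 and 3 of 25, and in WT 2 CLK3 introns 6 and 11, each at 1 of 5, lay below intron 4, as did introns 5 and 12 with 1 unspliced read each.

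Junctions that leave out exon 4 were counted where a read crossed both flanking introns. Exon 4 measures 91 nt in CLK1 (chr2:200860125-200860215) and CLK4, 88 nt in CLK2 and 97 nt in CLK3. The skipping junction was found in 4 of 11 CLK1 reads, 1 of 4 CLK3 reads, 0 of 2 CLK2 reads and 0 of 1 CLK4 read. In CLK1 these were 2 of 3 and 0 of 1 reads in WT and 0 of 3 and 2 of 4 in K700E. A read with the skipping junction lacks the junction of intron 4 and, if it counts there, counts as unspliced; how many did so is not given in the tables.

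**Figure D3:**
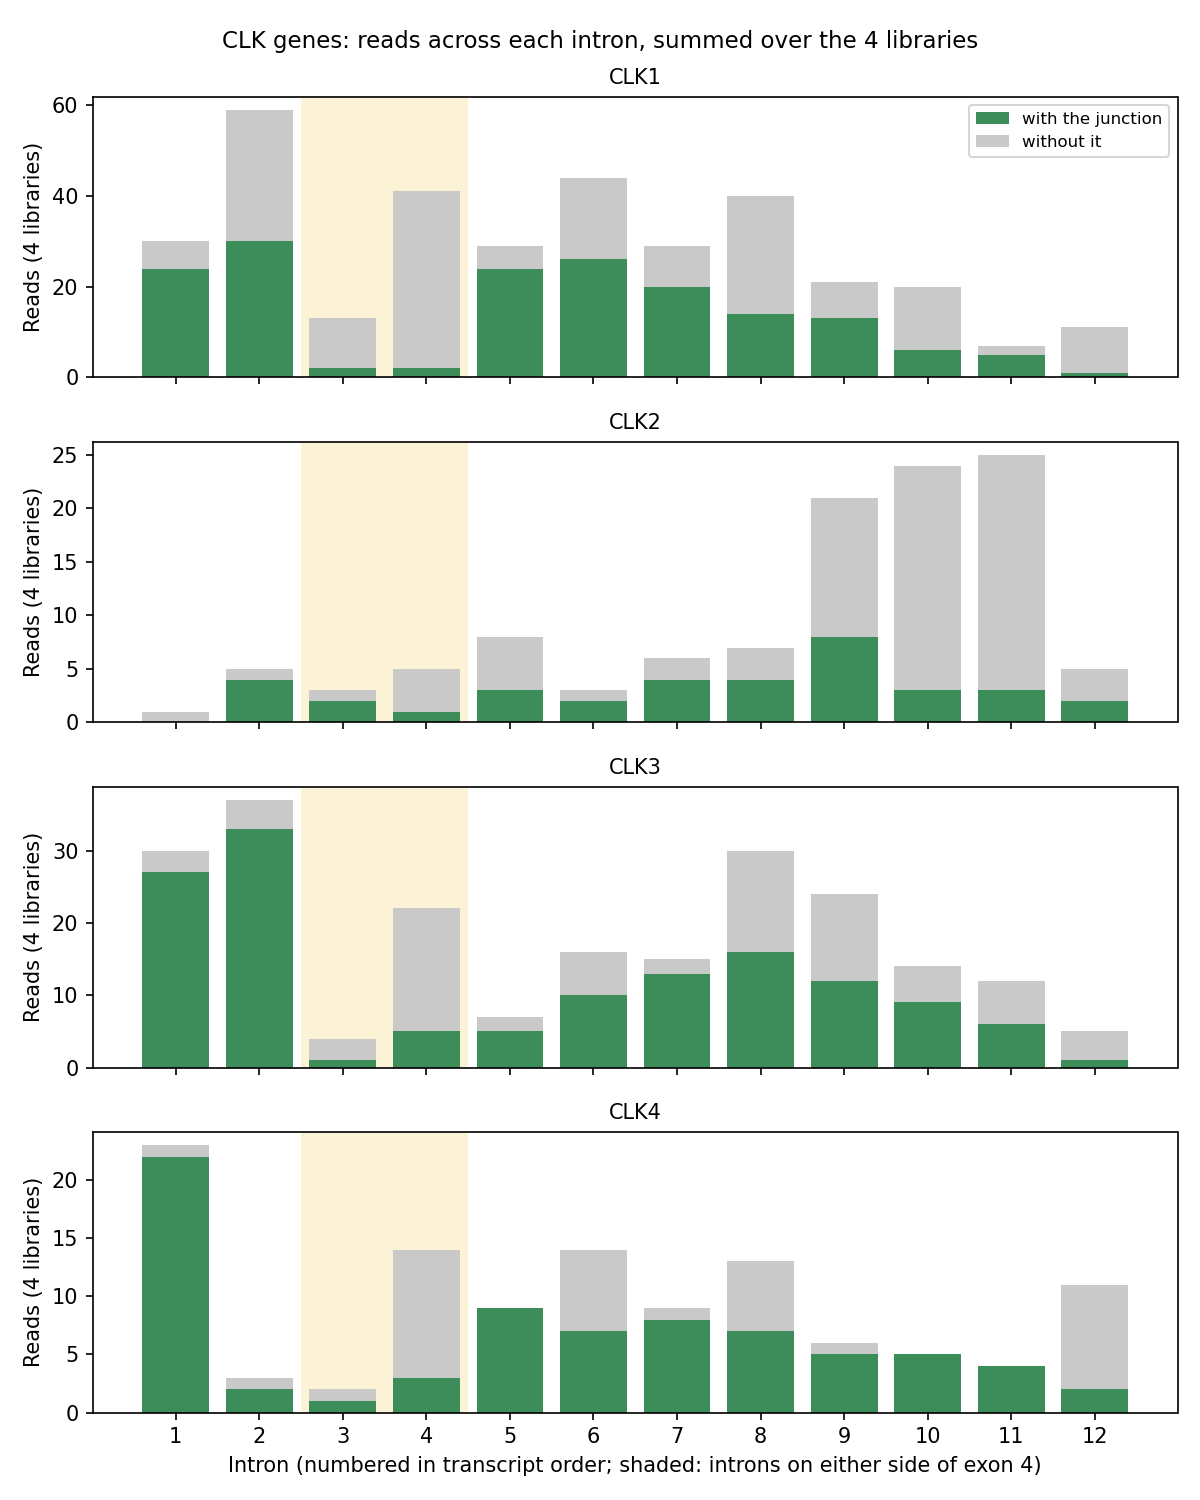
Reads across each of the 12 reference introns of CLK1, CLK2, CLK3 and CLK4, summed over the 4 libraries (bars start at 0), with the junction in green and without it in grey. Introns 3 and 4 are shaded. At intron 4 most reads are grey in every gene, with 2 of 41 spliced in CLK1, while intron 5 of CLK1 and CLK4 is mostly green.

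Summed over all annotated introns, unused alternatives included, all 4 kinases had lower mean efficiency in K700E and none passed. Of all 5086 genes tested, 3174 were lower and 1911 higher. CLK1 stood at 56.9% and 33.7% in WT against 23.0% and 39.4% in K700E, CLK2 at 34.2% and 44.4% against 10% and 39.6%. CLK3 stood at 43.6% and 29.5% against 17.02% and 45.5%, and CLK4 at 46.3% and 56.5% against 51.4% and 33.3%. The groups overlapped in all 4 genes, whereas of all genes tested 21.1% were separated in the lower and 10.3% in the higher direction. Every edgeR adjusted p was 1.00, and over all 5086 genes tested 0 were called (0%), 171 had an unadjusted p under 0.05, DESeq2 called 1 and limma 0. CLK1 differed by -14.1 points, but by -2.52 if WT replicate 1 was left out and by -25.7 if WT replicate 2 was. CLK4 differed by -9.07 points, and by -18.1 without K700E replicate 1 and -0.058 without K700E replicate 2. Differences of the other members changed sign when 1 library was left out.

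Nascent reads were compared over the most read intron of each gene. MAT2A and OGT were among the most read genes, between the 97.5th and the 99.98th percentile, in each library, of the genes with a read there. The CLK genes lay lower, CLK1 between the 80.1st and the 94.0th percentile.

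MAT2A intron 4 was crossed by 227 and 727 reads in WT and 56 and 120 in K700E, or 1502 and 5785 against 1143 and 1299 when each library's reads over the most read introns are scaled to 1000000 (RPM). Both WT libraries lay above both K700E libraries, which held for 17.1% of the genes tested, and the WT 2 value was 3.85 times that of WT 1, a ratio above 95.3% of 792 genes. The log2 fold change was -1.67 ± 0.75 (SE; edgeR adjusted p = 0.834), and it was -0.57 without WT replicate 2. In bulk RNA, fewer cells that transcribe a gene and less RNA per cell cannot be told apart.

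OGT intron 12 was crossed by 225 and 107 reads in WT and 49 and 38 in K700E, or 1489 and 851 against 999.8 and 411 RPM. The groups overlapped, with a log2 fold change of -0.86 ± 0.73 (adjusted p = 0.878), which was -0.33 without K700E replicate 2, -0.37 without WT replicate 1, -1.33 without WT replicate 2 and -1.78 without K700E replicate 1. CLK1 intron 2 was crossed by 16 and 12 reads in WT and 7 and 24 in K700E, or 105.9 and 95.5 against 143 and 260 RPM, and both K700E libraries lay above both WT libraries, as for 18.3% of genes. Its log2 fold change was 0.88 ± 0.63 (adjusted p = 0.843), and 0.41 without K700E replicate 2. CLK2, CLK3 and CLK4 had too few reads for this test. Of 3092 genes tested, edgeR and DESeq2 called 0 (0%), with 172 at an unadjusted p under 0.05 in edgeR. Scaling by total reads instead of TMM moved the median log2 fold change of these genes from -0.021 to 0.25, and gave -1.46 for MAT2A, -0.57 for OGT and 1.17 for CLK1.

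**Figure D4:**
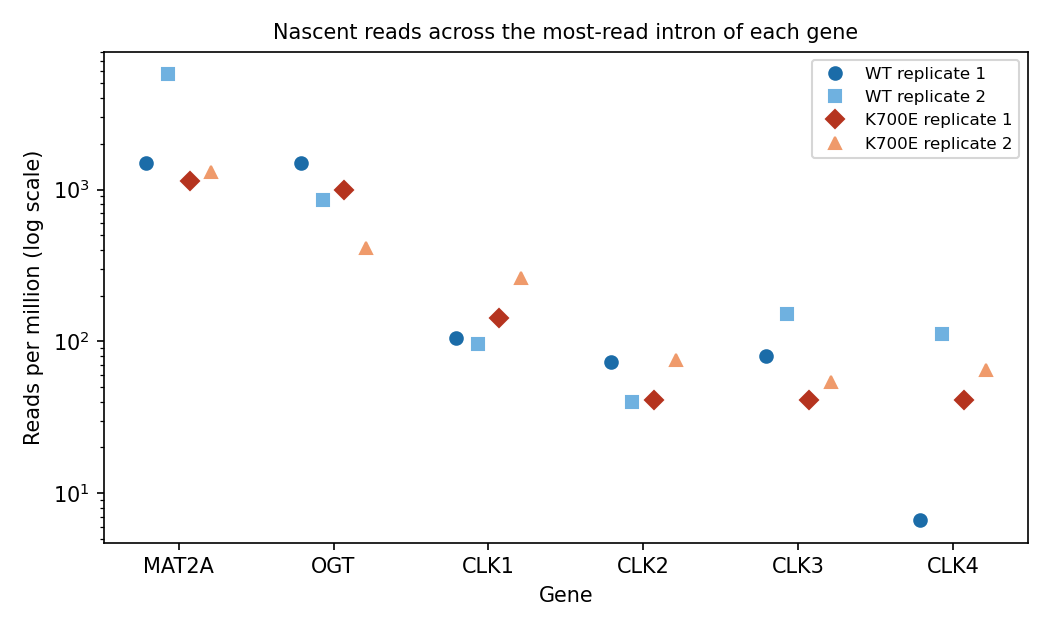
Reads scaled to 1000000 per library (log scale) across the most read intron of each gene, 1 point per library. MAT2A in WT replicate 2 stands at 5785, above the other 3 libraries at 1143 to 1502, and the CLK genes lie below MAT2A and OGT in every library.

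Genes around these loops were followed as lists. Of 19 genes of the methionine cycle and MAT2A regulation, 14 could be measured: 11 were lower in K700E and 3 higher, at a median of -2.73 points against -2.55 over all genes. Of all 5086 genes tested, 3174 were lower and 1911 higher, which is the background for this and every list below. AHCYL1, a relative of adenosylhomocysteinase, stood at 59.1% and 59.6% in WT against 53.2% and 42.7% in K700E. PRMT5, an arginine methyltransferase that uses S-adenosylmethionine, stood at 59.3% and 32.1% against 31.0% and 30.4%, and without WT replicate 1 its difference of -15.0 points was -1.41. AHCY, which clears S-adenosylhomocysteine, stood at 100% and 50% against 33.3% and 50%, from 11 to 26 overlaps.

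Of 10 genes of the O-GlcNAc and hexosamine pathway, 6 could be measured, 3 lower and 3 higher (median -3.57 points). GFPT1, the enzyme that commits fructose 6-phosphate to hexosamine synthesis, stood at 77.9% and 70.6% in WT against 59.6% and 69.6% in K700E. PGM3, which acts later in the same pathway, stood at 77.6% and 64.4% against 68.9% and 58.6%. The splicing regulator SFSWAP stood at 33.3% and 29.8% against 50% and 56.4%.

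The median differences of SR protein kinases and phosphatases and of SR proteins had opposite signs. Of 10 measured kinases, phosphatases and importers, 7 were lower and 3 higher (median -5.72 points), with the kinase PRPF4B at 75.5% and 68.6% in WT against 59.7% and 59.7% in K700E, DYRK1A at 46.1% and 40.0% against 33.7% and 35.2%, and the SR protein importer TNPO3 at 81.2% and 73.6% against 72.1% and 71.1%. Of 14 measured SR proteins and partners, 4 were lower and 10 higher (median 2.32 points). SRRM2, a large SR-related protein of nuclear speckles, stood at 36.8% and 53.4% in WT against 81.7% and 59.5% in K700E. SRSF1 stood at 13.6% and 24.9% against 29.3% and 27.6%, and SRSF6 at 29.8% and 48.6% against 55.4% and 50%. Whether the 2 lists differ from each other was not tested.

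Of 17 measured genes from a list with reported regulated intron retention, 9 were lower and 8 higher (median -1.28 points). The RNA helicase DDX17 stood at 92.9% and 92.6% in WT against 83.3% and 79.6% in K700E, the cyclin CCNL2 at 56.3% and 35.04% against 20.8% and 33.3%, and RBM25 at 52.4% and 49.1% against 32.6% and 44.8%. No gene of any of the 5 lists was called in edgeR, and 1 (DDX17) had an unadjusted p under 0.05.

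Over genes with at least 100 overlaps in every library, those with the profile most like each member over the 4 libraries were found by the mean absolute difference of gene efficiency. For MAT2A these were CDC16, SLC38A2 and KNL1, at 6.41, 7.42 and 9.90 points among 943 genes. CDC16 stood at 58.9% and 69.4% in WT against 76.7% and 50.8% in K700E, with WT 1 and K700E 2 low as in MAT2A. For OGT they were CSE1L, STAG2 and FRYL at 2.12, 2.93 and 2.94 points. CUX1, DCAF6 and ATF7IP2 lay nearest to CLK1 (2.29, 3.60 and 3.81), ARID1A, MFSD8 and SDHAP1 to CLK2 (4.24, 6.50 and 6.77), GON4L, SLC30A6 and HNRNPM to CLK3 (4.31, 4.45 and 4.47) and MIA3, PLEKHB2 and DDX5 to CLK4 (5.01, 5.02 and 5.32). With 4 libraries, such likeness describes these samples only.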

How the data were processed

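Per the labels, each of the 4 samples was sequenced with long reads after a 3′ adapter was ligated, and cDNA was amplified by PCR with no molecular identifiers mentioned. Trimming with cutadapt, mapping with minimap2 and the build hg38 come from the submitters' processing notes; versions and settings are not stated there. The authors deposited, per annotated intron, a count of reads over it and a count of reads with its junction, not normalized, and their ratio, rounded to 2 decimals. Tables of RNA 3′ ends were not used, because their rows bear no identifiers. The K700E tables carry in-file labels (MUT2 and MUT3) that differ from the titles; the series records were followed.

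Rows were placed on GENCODE 29 by transcript, number, start and strand (87.3 to 87.6% of rows, all member rows), equal introns counted once, and junction counts above the reads (2.23 to 4.16% of rows) set to the reads. Introns are numbered along 1 reference transcript per gene. Overlapping annotated introns share reads, and a read spliced at another of them counts as unspliced. Gene efficiencies, also those of the lists and of the likeness, sum over all annotated introns and are lowered by such alternatives.

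Spliced and unspliced counts were tested with edgeR 4.0.16 (R 4.3.3), with a term per sample, spliced, and spliced by genotype, at 10 reads in every sample, with dispersion 0 for introns and estimated dispersion for genes and nascent reads (TMM). Benjamini-Hochberg adjustment ran over all features, threshold 0.05. DESeq2 1.42.0 and limma 3.58.1 were alternatives, with read minimums of 5 and 20, other treatments of ratios and overlaps, and each library left out. The code was checked on simulated counts. Members, lists, tests and the dispersion of 0 were chosen with earlier results of these data known. Named were members, their introns with 10 reads in every sample (others by counts), the 3 genes of smallest p per list and the 3 most alike. One erythroid marker of the list is not reported here and was left out of its sums.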

Additional observations from a re-analysis of the deposited data

How the results depend on the processing

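The 5 introns called over the series became 2 with estimated dispersion, 0 with DESeq2, 0 with limma and 3 with the replicate block, and 0 to 12 when 1 library was left out (12 without WT replicate 2, 2 without K700E replicate 1, 0 without K700E replicate 2). The count of genes changed in efficiency, 0, was 1 with DESeq2 (MYO1C) and 1 with the most used of overlapping introns (MALAT1), and 0 when any library was left out. The count of genes changed in nascent reads, 0, was 1 without a filter on low counts (DOCK2), 2 with the replicate block, and 0 to 171 when 1 library was left out (8 without WT replicate 1, 171 without WT replicate 2). The call of MAT2A intron 6 was lost with the replicate block (adjusted p = 0.808), with no change to the side of the threshold of other members. Deviations of samples with the same number in their titles correlated at -0.087 for introns, -0.064 for genes and -0.0047 for nascent reads. The in-file labels of K700E 1 and K700E 2 are MUT2 and MUT3, so the pairing used here and in the replicate block is uncertain. Whether samples shared a batch was therefore not tested.

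Every reversal came from leaving out 1 library. A difference in points is taken from the counts, so another test, dispersion, replicate block or read minimum could not change its direction. The ranges in points were -14.6 to 36.4, -15.5 to 35.6, -18.6 to 36.9, -17.0 to 33.7, -31.5 to 9.58 and -26.0 to 11.4 for MAT2A introns 2 to 7, and -9.17 to 22.3 for the gene. They were -1.09 to 5.23, -3.20 to 0.725, -6.32 to 2.37, -18.8 to 8.45, -28.6 to 7.14, -2.38 to 4.69, -2.16 to 0.472, -4.28 to 0.979, -4.67 to 0.595 and -4.60 to 11.1 for OGT introns 1, 2, 3, 5, 6, 10, 13, 14, 15 and 20, and -14.3 to 1.88 for the gene. They were -29.3 to 0.256 for CLK2 and -19.5 to 8.90 for CLK3. In 538 other recomputed values of single genes and introns, direction and side of the threshold were kept. For many of these values the direction could not change, for the reason given above. They also take in OGT intron 12, which had neither a difference nor a test. Depth limits the CLK introns and the detained introns, with at most 52 reads per library. The cause of these shifts was not tested.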
